A study of Mus musculus with 56 samples.

Results

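CpG-poor promoter peaks are the promoter regions of the mouse granulocyte-monocyte progenitor (GMP) peak set that hold almost no CpG dinucleotides. The peaks are all of equal length. Members were defined as autosomal peaks whose centre lies within 1 kb of the transcription start site (TSS) of a protein-coding transcript and whose sequence holds 3 or fewer CpG. The rule found 2927 of the 23828 autosomal promoter peaks (12.3%), out of 297361 peaks in all, nearest to the TSS of 2615 genes. The other 20901 autosomal promoter peaks, with 4 or more CpG, served as the comparison. The rule used sequence and position only, and no measured value.

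The values come from 56 bulk ATAC-seq libraries, each made from 1000 cells, where Tn5 transposase cuts open DNA and tags it for sequencing. All lines are clones grown from single bone marrow progenitors with floxed Tet2, held in cycle by an oestrogen-dependent Hoxb8 (Hoxb8-ER) and kept undifferentiated in 0.5 µM beta-estradiol, so all groups share the Hoxb8-ER transgene and the floxed allele. From every clone came a Tet2 knockout (KO) line, given Cre from an integrase-defective lentivirus, and a control line, given GFP from the same kind of vector, both at a multiplicity of infection of 200. Of the 28 clone pairs, 4 (clones 19 to 22) were derived and grown in GM-CSF at 10 ng/ml, as macrophage progenitors, and 24 in stem cell factor (SCF) at about 100 ng/ml, as neutrophil-biased progenitors. The titles of clones 20 to 22 name SCF while their treatment field gives GM-CSF, and the treatment field was followed. Each clone is the progeny of 1 cell and cytokine was not varied within a clone. The study's main text has all 28 clones come from 1 floxed mouse, while its reporting summary names lines from male and female mice. The number of animals is thus not settled, and the replicates are clones and not animals.

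Most mammalian promoters overlap CpG islands and are open in nearly every cell type. Promoters with few CpG tend to serve genes used by only some tissues, and their activity leans on factors of the lineage, which in myeloid progenitors include PU.1, C/EBP and RUNX proteins. Tet2 oxidizes 5-methylcytosine, a mark placed almost only on CpG, and inactivating mutations of it are frequent in clonal haematopoiesis. GM-CSF drives monocyte-macrophage and granulocyte growth, while SCF acts through Kit on early progenitors.

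The sequences below carry the comparisons that follow. The first set belongs to members whose accessibility was higher in GM-CSF control lines. Each run holds bases of the gene's strand (mm10, read from the RefSeq GRCm38.p6 assembly), from 100 bases before to 50 after the annotated TSS, moved where needed to stay inside the peak. Capitals mark every match, on either strand, to the C/EBP motif TTGCNNAA, the PU.1 core GAGGAA, the RUNX core TGTGGT, the TATA box written as TATAAA, or the motif of GATA factors written as AGATAA. The stretches lie at chr3:90695687-90695837 (S100a9, minus strand), chr9:88956817-88956967 (Bcl2a1a, plus), chr2:28084838-28084988 (Fcnb, minus), chr15:75111887-75112037 (Ly6c2, minus), chr7:16259217-16259367 (C5ar1, minus) and chr19:11640784-11640934 (Ms4a3, minus).
S100a9: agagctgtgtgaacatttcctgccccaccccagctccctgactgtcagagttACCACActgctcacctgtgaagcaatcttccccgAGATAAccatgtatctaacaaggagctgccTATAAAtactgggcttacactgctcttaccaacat
Bcl2a1a: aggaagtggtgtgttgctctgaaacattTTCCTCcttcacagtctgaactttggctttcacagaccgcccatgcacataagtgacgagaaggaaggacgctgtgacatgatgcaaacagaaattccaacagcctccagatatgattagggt
Fcnb: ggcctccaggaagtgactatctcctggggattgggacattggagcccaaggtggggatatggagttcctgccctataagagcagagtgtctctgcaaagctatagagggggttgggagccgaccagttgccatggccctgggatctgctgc
Ly6c2: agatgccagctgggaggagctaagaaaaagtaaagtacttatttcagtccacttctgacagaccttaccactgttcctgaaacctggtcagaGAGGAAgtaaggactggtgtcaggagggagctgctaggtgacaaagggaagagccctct
C5ar1: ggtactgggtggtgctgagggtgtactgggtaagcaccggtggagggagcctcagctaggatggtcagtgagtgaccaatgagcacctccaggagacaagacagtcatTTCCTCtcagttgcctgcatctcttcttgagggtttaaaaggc
Ms4a3: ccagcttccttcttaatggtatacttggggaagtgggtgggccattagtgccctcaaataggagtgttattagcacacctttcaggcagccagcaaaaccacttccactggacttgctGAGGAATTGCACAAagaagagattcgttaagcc

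The second set belongs to members whose accessibility was lower in GM-CSF control lines, with the same marking. They lie at chr11:87793481-87793631 (Mpo, plus strand), chr7:143004946-143005096 (Tspan32, plus), chr11:102469878-102470028 (Itga2b, minus) and chr6:48841320-48841470 (Tmem176b, minus).
Mpo: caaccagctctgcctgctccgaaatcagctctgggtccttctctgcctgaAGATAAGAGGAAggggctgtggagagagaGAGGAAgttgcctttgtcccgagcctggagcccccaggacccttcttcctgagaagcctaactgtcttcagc
Tspan32: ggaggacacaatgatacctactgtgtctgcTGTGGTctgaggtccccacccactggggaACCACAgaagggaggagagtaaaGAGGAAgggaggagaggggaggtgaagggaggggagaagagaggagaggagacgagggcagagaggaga
Itga2b: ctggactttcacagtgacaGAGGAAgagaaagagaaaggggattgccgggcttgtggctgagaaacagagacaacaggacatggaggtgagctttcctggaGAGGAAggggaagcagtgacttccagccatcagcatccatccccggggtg
Tmem176b: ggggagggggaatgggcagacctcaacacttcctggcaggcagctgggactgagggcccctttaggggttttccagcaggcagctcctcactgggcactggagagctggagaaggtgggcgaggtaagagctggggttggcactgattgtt

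S100a9 held a TATA box match that began at its annotated TSS, a RUNX match 64 bases before it and a GATA match 30 bases before it. Ms4a3 held a PU.1 match directly followed by a C/EBP match, starting 18 and 24 bases after the TSS. Mpo held a GATA match joined to a PU.1 match, starting 50 and 44 bases before the TSS, and another PU.1 match 21 bases before it. Fcnb and Tmem176b held no match in these windows, which says only that these letters are not there.

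To show what the rule separates, Lbp, the second most open member, stands beside Gapdh, a housekeeping gene with a CpG-rich promoter, with every CpG in capitals. The Lbp stretch (chr2:158306382-158306532, plus strand) holds 1 CpG and the Gapdh stretch (chr6:125165680-125165830, minus strand) holds 9.
Lbp: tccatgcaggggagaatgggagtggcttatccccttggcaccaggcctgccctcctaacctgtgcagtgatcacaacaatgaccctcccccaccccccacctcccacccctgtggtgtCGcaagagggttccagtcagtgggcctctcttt
Gapdh: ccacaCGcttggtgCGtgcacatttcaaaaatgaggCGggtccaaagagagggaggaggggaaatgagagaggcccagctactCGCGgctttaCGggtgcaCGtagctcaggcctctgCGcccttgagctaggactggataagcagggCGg

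In the median, a CpG-poor promoter peak held 2 CpG against 20 in other promoter peaks, had a GC content of 50.2% against 62.1%, and an observed over expected CpG ratio of 0.117 against 0.702. Many members are not the start site itself. Of the 2927, 762 were centred within 150 bp of the TSS, 585 beyond that and up to 500 bp, and 1580 beyond 500 bp, and the median distance was 567 bp against 123 bp for other promoter peaks. A window of peak length at the TSS held 3 or fewer CpG for 625 of the 762 nearest members (82.0%) but for only 353 of the 1580 farthest (22.3%). In all, 1637 members (55.9%) lay beside a TSS with more than 3 CpG, and 1790 belonged to a gene that also had a CpG-richer promoter peak. The remaining 1137 members were the sole kind of promoter peak of 994 genes.

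CpG-poor promoter peaks were weakly open. Values per library are counts scaled to a library total of 1000000 peak counts (CPM), and a member's mean is the mean over the 4 groups. The median member had 1.68 CPM (quartiles 1.00 and 2.90) against 6.55 CPM (2.07 and 27.3) for other promoter peaks and 1.32 CPM for all remaining peaks. The highest member reached 38.3 CPM, while 2462 other promoter peaks had 50 CPM or more. Summed over the 56 libraries a member held 34 counts in the median, with a range of 3 to 967 and none without a count. A mean of at least 5 CPM, needed to enter the tests, was met by 346 members (11.8%) and by 11402 other promoter peaks (54.6%), so results on change concern the more open 346 and say nothing of the other 2581.

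**Figure D1:**
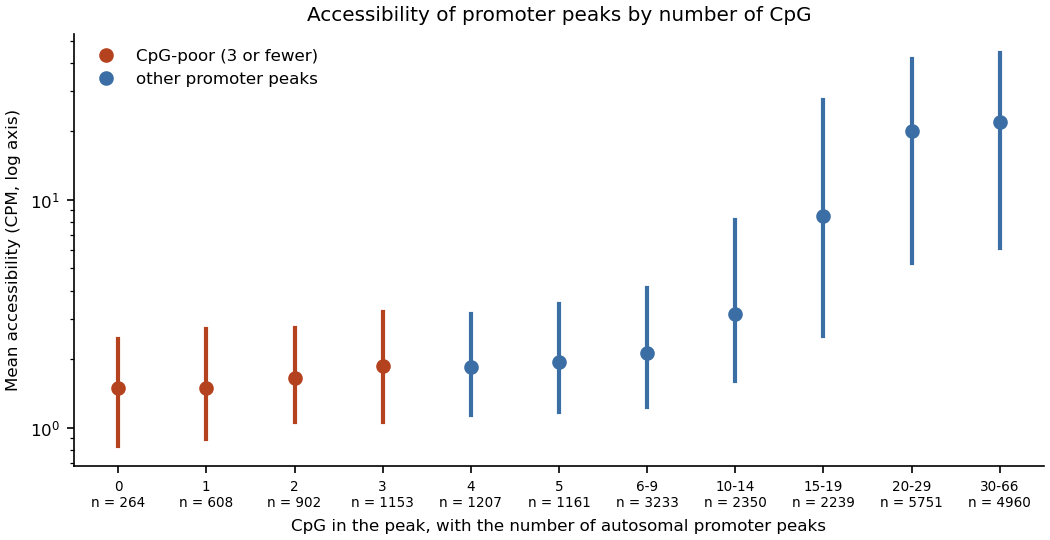
Mean accessibility of autosomal promoter peaks (CPM, log axis) by the number of CpG in the peak; points are medians over peaks and bars run between the quartiles. Medians stay between 1.49 and 2.13 CPM up to 9 CpG and reach 20.0 CPM at 20 to 29 CpG.

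Accessibility changed little across the limit of the rule and much farther along the scale. The 1153 peaks with 3 CpG had a median of 1.86 CPM and the 1207 peaks with 4 CpG had 1.85 CPM, with 14.9% and 12.6% at or above 5 CPM. Peaks with no CpG had 1.49 CPM, those with 10 to 14 CpG 3.15 CPM, those with 15 to 19 CpG 8.46 CPM and those with 30 or more 22.0 CPM. The limit therefore cuts a flat stretch of the curve and not a step.

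The CpG-poor share of promoter peaks varied widely between programs. Among 19 gene lists it was 17 of 25 (68.0%) for mast cell, basophil and eosinophil genes, 21 of 35 (60.0%) for neutrophil granule and marker genes, 16 of 32 (50.0%) for interferon response genes, 21 of 45 (46.7%) for innate sensing and phagocytic receptors and 16 of 37 (43.2%) for monocyte and macrophage genes. It was also high for lists that are no blood program, at 6 of 11 (54.5%) for pancreas and gut genes and 2 of 5 (40.0%) for epidermis genes. It was 0 of 22 for housekeeping genes, 1 of 18 for brain genes and 5 of 51 (9.80%) for stem and early progenitor genes, beside 12.3% over all promoter peaks. Among gene families it was 12 of 15 for the MS4A family, 17 of 24 for killer lectin-like receptors, 87 of 137 for olfactory receptors and 17 of 31 for C-type lectins, but 8 of 119 for ribosomal proteins and 3 of 65 for canonical histones. These shares describe the sequence of the genes' promoters within the peak set, and only 120 of 1133 olfactory receptor genes had a promoter peak at all.

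**Figure D2:**
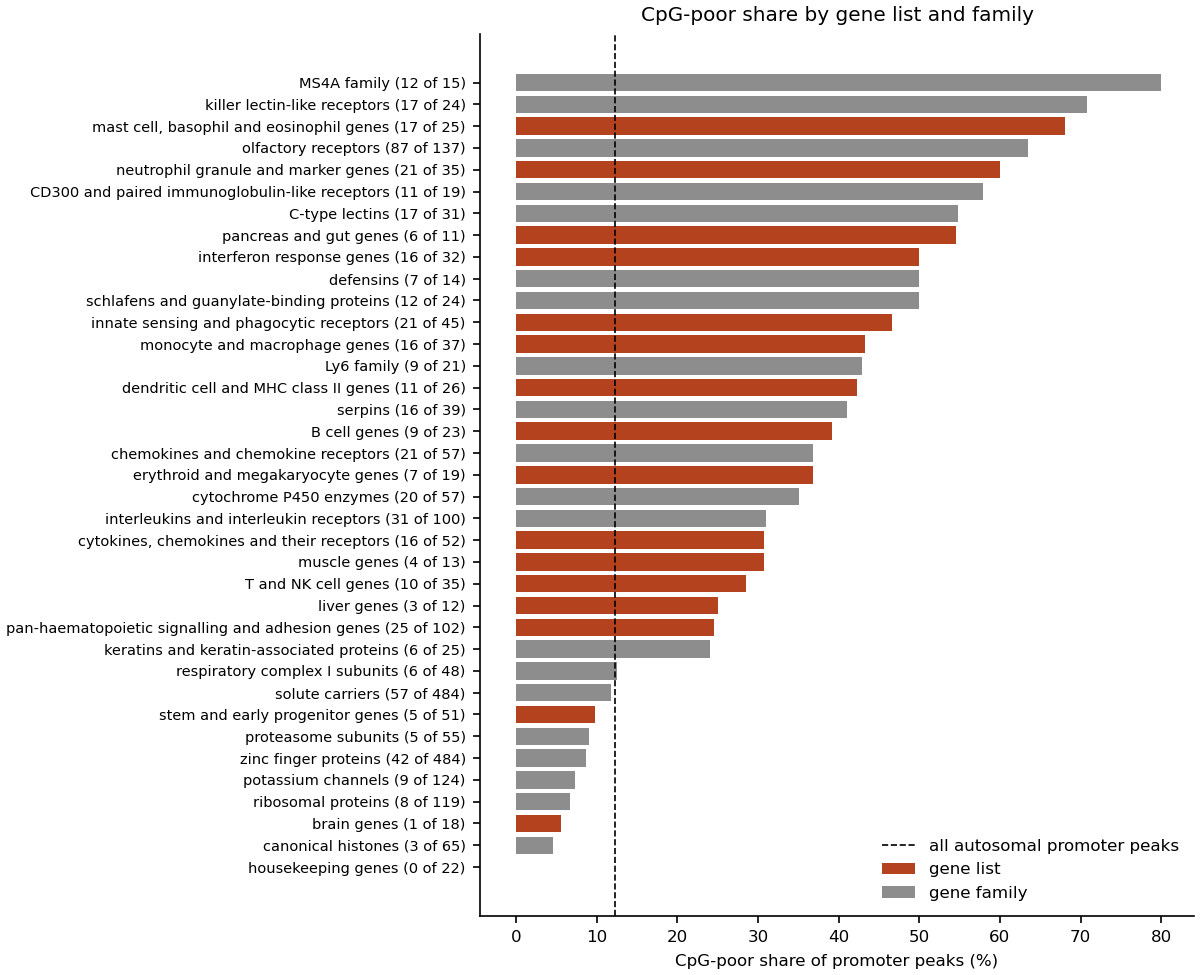
Share of promoter peaks that are CpG-poor (percent, horizontal axis) for gene lists and families with 10 or more promoter peaks, with the counts beside each name; the dashed line is the share over all autosomal promoter peaks, 12.3%. Mast cell and neutrophil lists stand at 68.0% and 60.0%, ribosomal proteins at 6.72% and housekeeping genes at 0.

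The lists also differed in how open their CpG-poor promoters were. CpG-poor promoters of neutrophil genes had a median of 7.35 CPM and 12 of 21 passed the filter on low values. Those of mast cell, basophil and eosinophil genes had 1.41 CPM, with 1 of 17 past the filter, and those of olfactory receptors 0.942 CPM, with 1 of 87. Innate sensing and phagocytic receptors had a median of 3.47 CPM with 7 of 21 past the filter, pan-haematopoietic signalling and adhesion genes 3.07 CPM with 11 of 25, and monocyte and macrophage genes 1.80 CPM with 4 of 16. Of the 19 lists, neutrophil genes had the highest CpG-poor median, and there the CpG-poor peaks exceeded the list's own CpG-richer peaks (3.91 CPM). The same held for liver, muscle, epidermis and brain genes, with 3, 4, 2 and 1 CpG-poor peaks. Pan-haematopoietic genes went the other way, with 9.76 CPM at the CpG-richer peaks.

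The 12 most open members spanned adhesion, signalling and innate defence. Tspoap1, which encodes a binding partner of the mitochondrial protein TSPO, led with a mean of 38.3 CPM, at a peak centred beyond 500 bp before its TSS. Lbp, the lipopolysaccharide-binding protein, had 34.7 CPM, Tspan32, a tetraspanin of blood cells, 34.1 CPM, and Ptafr, the receptor of platelet-activating factor, 33.1 CPM. C130050O18Rik had 28.0 CPM, Lgals9, a galectin, 27.3 CPM, and Ms4a3, a membrane protein that marks granulocyte-monocyte progenitors, 27.1 CPM. Trim21, a cytosolic antibody receptor, Traf3ip3, Gm14548, Gmfg, an actin regulator of blood cells, and Hcst, the signalling adaptor DAP10, lay between 23.8 and 25.8 CPM. Of these 12 peaks, 11 were centred within 150 bp of the TSS. The order weighs the 4 groups equally, shallow GM-CSF KO lines included. Within SCF KO and control lines Tspan32 averaged 49.7 and 44.3 CPM, above Tspoap1 with 34.6 and 36.1 CPM.

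Motif shares over both strands differed between the classes. GAGGAA, the PU.1 core, was found in 38.6% of CpG-poor and 28.7% of other promoter peaks, and in 51.2% of the 346 members past the filter against 27.5% of the other promoter peaks past it. TGTGGT (RUNX) was found in 29.2% against 14.5%, TTGCNNAA (C/EBP) in 15.0% against 8.26%, the TATA box in 10.4% against 4.64% and the motif of GATA factors in 13.5% against 5.15%. Motifs that contain CpG were rarer, which the limit of 3 CpG builds in, with GGGCGG (SP) in 5.16% against 53.7%, CCGGAAG (ETS) in 1.16% against 12.5% and TGACGTCA (CRE) in 0.137% against 2.40%. CCAAT was as frequent in both, at 31.6%. The motifs of other factors were also more frequent in CpG-poor peaks. AP-1 was found in 11.7% against 5.22%, STAT in 9.77% against 5.64% and IRF in 5.30% against 2.55%. KLF was at 10.9% against 8.61% and the E-box of E proteins at 23.3% against 18.8%. The higher shares were thus not limited to PU.1, C/EBP and RUNX. GC content also differed, at 50.2% against 62.1%, and its part in these shares was not tested. All peaks are of equal length, so the shares rest on windows of equal length.

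Before the comparisons, the libraries need a word. Total counts per library ranged from 39379 to 1079233, and the shallowest were the GM-CSF KO lines of clones 19 and 20, in which 1 count equals 24.5 and 25.4 CPM, followed by the GM-CSF control lines of clones 20 and 19, in which it equals 11.3 and 8.70 CPM. All 8 progenitor markers had peaks near the TSS. Their summed median was 107 CPM in GM-CSF KO, 166 in GM-CSF control, 221 in SCF KO and 206 in SCF control lines. The lists of B cells, T cells, erythroid cells and stroma gave 22.0 CPM or less, but hold only 4 markers each. Per peak, progenitor markers averaged 9.27 CPM in GM-CSF KO, 14.2 in GM-CSF control, 19.9 in SCF KO and 18.2 in SCF control lines. The other lists averaged at most 5.03 CPM per peak, at stroma in GM-CSF KO lines. By median, the progenitor sum was lower in GM-CSF than in SCF lines. It was also lower in GM-CSF KO than in GM-CSF control lines. Among control lines it ranged from 113 to 181 CPM in GM-CSF and from 131 to 258 CPM in SCF, so these overlap. Mpo and Ms4a3, which are themselves members, are among the 8 markers. The part of the progenitor sum in the cytokine results was not tested. Of 564 pairs of libraries within a group, 29 differed by no more than sampling noise over promoter peaks (chi-square, p of at least 0.05). None were identical and 18 of the 29 involved either the SCF KO line of clone 3 or the SCF control line of clone 15. Since the labels give them as different clones, each was kept as its own replicate. Loss of Tet2 was taken from the labels and was not checked from the peaks.

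The first comparison asks whether loss of Tet2 changed these promoters, with KO and control lines paired by clone in the 24 SCF clones. No member passed an adjusted p of 0.01 (edgeR quasi-likelihood test, Benjamini-Hochberg over 29108 peaks), where 0.845% of all tested peaks did. At an unadjusted p under 0.05 there were 24 of 346 members (6.94%) and 3233 of all 29108 peaks (11.1%), and DESeq2 also called no member. The background depends on the filter, since 3 of 102083 peaks were called when a mean of 2 CPM sufficed, again with no member among them. The median log2 fold change of the members was -0.08, beside 0.00 for the other promoter peaks and -0.05 for all tested peaks. The median SE of a member was 0.27 on the log2 scale, so small changes were not detectable at this depth.

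Most calls elsewhere lay at an accessibility that no CpG-poor promoter reached. Other promoter peaks gave 213 higher and 4 lower in KO, and 209 of these were among the 2462 peaks with at least 50 CPM. Between 10 and 50 CPM, 0 of 88 members and 8 of 6656 other promoter peaks were called, and between 5 and 10 CPM 0 of 258 and 0 of 2284. Median log2 fold changes were -0.09 for members and -0.12 for other promoter peaks between 5 and 7.5 CPM, -0.09 and -0.11 between 10 and 15 CPM, and -0.05 and 0.01 between 25 and 50 CPM, where only 8 members lay. The difference between the classes was not tested.

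**Figure D3:**
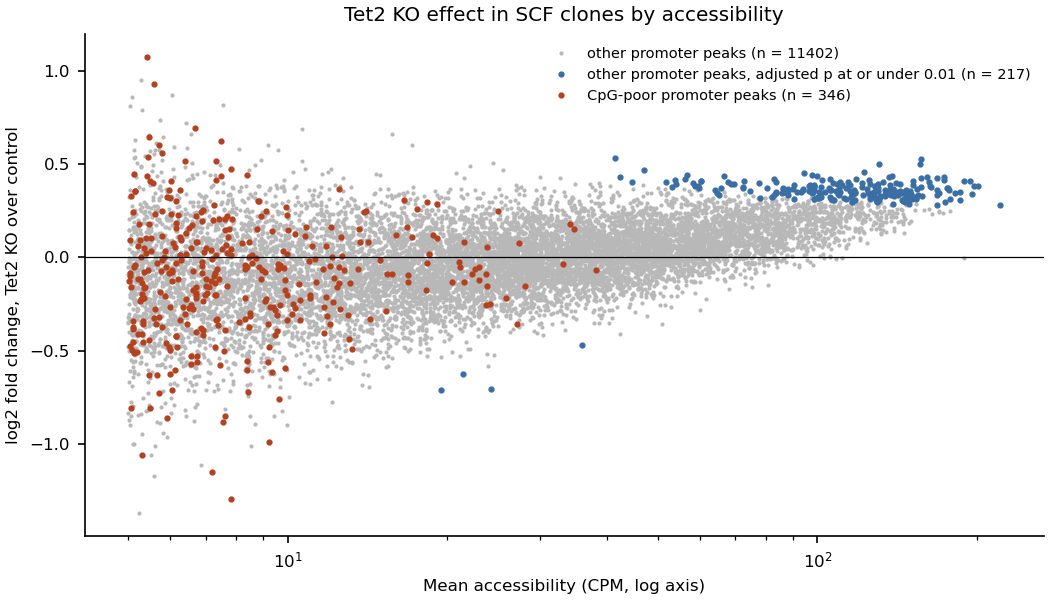
log2 fold change of Tet2 KO over control lines in SCF clones (vertical axis) against mean accessibility (CPM, log axis) for tested promoter peaks; each point is a peak. The 346 CpG-poor peaks end at 38.3 CPM, while the called peaks lie mostly above 50 CPM.

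The member nearest to a call was Slc28a2, a sodium-coupled nucleoside transporter, at a peak beyond 500 bp before its TSS. Its level in SCF clones had a lowest, median and highest value of 0, 5.65 and 16.8 CPM in KO lines and of 0, 8.60 and 26.2 CPM in control lines. The KO line was the lower of the pair in 18 of 24 clones, and the ranges overlap widely. The log2 fold change was -0.88 ± 0.24 (SE) with an adjusted p of 0.0268 (edgeR), past 0.05 and not past 0.01. The adjusted p was 0.105 with an offset for GC content and 0.0897 without clones 5, 13 and 16 (edgeR). It was the only member lower at an adjusted p of 0.05, where 0.168% of all tested peaks were lower, and no member was higher.

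Group means of the most open members differed little between KO and control lines. Tspoap1 averaged 34.6 ± 10.8 CPM in KO and 36.1 ± 10.2 CPM in control lines (SD, n = 24 each), Lbp 33.7 ± 9.05 and 29.6 ± 12.6 CPM, and Ptafr 33.3 ± 9.93 and 33.0 ± 8.73 CPM. Mpo, the myeloperoxidase gene of primary granules, averaged 30.2 ± 12.4 CPM in KO and 30.4 ± 10.4 CPM in control lines. Ms4a3 averaged 14.2 ± 9.87 CPM in KO and 17.8 ± 10.2 CPM in control lines, with a log2 fold change of -0.36 ± 0.18 and an adjusted p of 0.458 (edgeR). These differences lie within the spread between clones. None of the 12 neutrophil members tested was called, where 0.845% of all tested peaks were.

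As a share of all promoter counts, CpG-poor peaks held 1.69 ± 0.392% in KO and 1.80 ± 0.293% in control lines of SCF clones (SD, n = 24 each). The share was higher in KO in 7 of 24 pairs, with a mean paired difference of -0.113 ± 0.444 percentage points, smaller than its spread. Promoter peaks of both classes together held 44.1 ± 5.18% of all counts in KO and 42.4 ± 4.05% in control lines, so the denominator moved too, and its part in the share was not tested. In GM-CSF clones the share was 2.09 ± 0.163% in KO and 2.14 ± 0.233% in control lines (SD, n = 4 each), higher in KO in 2 of 4 pairs.

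In the 4 GM-CSF clones no member was called for KO against control (0% of all tested peaks, edgeR), with 8 members and 1280 of all peaks at an unadjusted p under 0.05. Nor was any member called for a difference in KO effect between GM-CSF and SCF clones (0% of all tested peaks, edgeR), with 9 members and 1152 of all peaks at an unadjusted p under 0.05. The median SE of a member was 0.74 for the first and 0.81 for the second on the log2 scale, so these fits could show large changes only.

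The second comparison asks how the cytokine of the culture shapes these promoters, with GM-CSF control lines set against SCF control lines. Members were called in both directions. Of 346 members, 42 were higher (12.1%) and 18 lower (5.20%) in GM-CSF at an adjusted p of 0.01 (edgeR), where 7.45% of all tested peaks were higher and 7.79% lower. Other promoter peaks gave 285 higher (2.50%) and 507 lower (4.45%) of 11402, and the peaks outside promoters 1841 higher (10.6%) and 1742 lower (10.0%) of 17360. The median log2 fold change was 0.21 for members, -0.06 for other promoter peaks and -0.01 for all tested peaks. At an accessibility of 5 to 10 CPM, 10.9% of members and 3.55% of other promoter peaks were higher, and 1.94% and 4.82% lower. At 10 to 50 CPM, 15.9% of members and 2.40% of other promoter peaks were higher, and 14.8% and 5.26% lower. Peaks outside promoters had 10.2% higher and 7.20% lower at 5 to 10 CPM, and 11.6% and 16.0% at 10 to 50 CPM. These differences between classes were not tested.

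The balance of higher and lower members varied with the filter. A peak passes it by its mean over all 4 groups, so one nearly closed in SCF passes only through GM-CSF and then had to differ. Of the 42 higher members, 21 had means under 5 CPM in both SCF groups, and of the 18 lower members 5 had means under 5 CPM in both GM-CSF groups. Among called members of 5 to 10 CPM, these numbered 20 of 28 and 4 of 5. With edgeR's own filter, which left 62 members, 7 were higher and 10 lower, so the balance turned. With a mean of 2 CPM, which left 1214, 28 were higher and 21 lower. All peaks called were 1933 of 13171 and 4284 of 102083.

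The counts depended on single GM-CSF clones. Without clone 22 the counts were 14 higher and 6 lower, and without clone 21 they were 23 higher and 10 lower. Without clone 19 and without clone 20 they stayed at 38 and 44 higher and 15 and 18 lower. All called peaks numbered 1884 without clone 22, 2850 without clone 21, 4105 without clone 19 and 4199 without clone 20, against 4435. In GM-CSF against SCF KO lines, all 42 and all 18 had the same sign and 21 and 11 were called in the same direction. Cells of these KO lines come from the same clones and are no new clones. The KO lines also entered the mean used by the filter, so this agreement was in part built in. The same count over all called peaks is not given here. Of the 26 named members called, 13 kept their call whichever clone was left out, among them S100a9, Bcl2a1a, Fcnb, Ly6c2, Ms4a3, Mpo, Tspan32 and Tmem176b. Without clone 22 the calls of Adgrg1, C130050O18Rik, C5ar1, Camp, Cyb561, Itga2b and the Ltb4r1 peak were lost, and without clone 21 that of Dock1. Their log2 fold changes without clone 22 included 2.52 at C5ar1, 2.02 at Camp, 1.80 at Ltb4r1 and -2.24 at Itga2b. Those of 6030468B19Rik, Clec12a, Ggta1 and Gm14548 were lost without either of clones 21 and 22, and that of Il1r2 also without clone 19. Cytokine cannot be told apart from the clones that were derived in it.

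Of the 42 higher members, 6 (14.3%) had no overlap between the GM-CSF and SCF control lines, and of the 18 lower members 1 (5.56%), beside 19.3% of all 2168 higher and 13.4% of all 2267 lower peaks. Among the higher members were 5 of the 12 tested neutrophil members. S100a9, a subunit of the calprotectin of neutrophils and monocytes, had 17.4, 22.7, 12.9 and 24.8 CPM in the GM-CSF control lines of clones 19 to 22. In SCF control lines its lowest, median and highest values were 0, 0 and 17.4 CPM. The highest SCF line exceeds the lowest GM-CSF line, so the groups overlap, and the log2 fold change was 3.74 ± 0.49 (SE, adjusted p = 2.1e-11, edgeR). Bcl2a1a, a survival factor of the Bcl2 family, had 17.4, 0, 27.6 and 11.7 CPM in GM-CSF control lines, against 0, 0 and 4.82 CPM in SCF control lines, a log2 fold change of 3.77 ± 0.52. Both S100a9 and Bcl2a1a had means under 5 CPM in both SCF groups and passed the filter through GM-CSF. Bcl2a1a has near-identical copies in the genome, so its reads could be shared with them.

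Fcnb, a ficolin of neutrophil granules, had 34.8, 22.7, 16.6 and 15.6 CPM in GM-CSF control lines, with a lowest, median and highest value of 0, 2.23 and 14.0 CPM in SCF control lines. The groups do not overlap, and the log2 fold change was 2.71 ± 0.46. Camp, the cathelicidin of secondary granules, had 0, 0, 22.1 and 20.9 CPM against 0, 3.35 and 11.1 CPM. Its rise, 2.28 ± 0.44, rests on clones 21 and 22, since the shallow lines of clones 19 and 20 held no count. Ms4a3 had 52.2, 34.0, 51.5 and 50.9 CPM in GM-CSF control lines, against 1.87, 16.6 and 39.3 CPM in SCF control lines, where the highest SCF line exceeds the lowest GM-CSF line. Its log2 fold change was 1.60 ± 0.25. A peak 770 bp after a TSS of Ltb4r1, the leukotriene B4 receptor of neutrophils, also rose, by 1.93 ± 0.51.

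**Figure D4:**
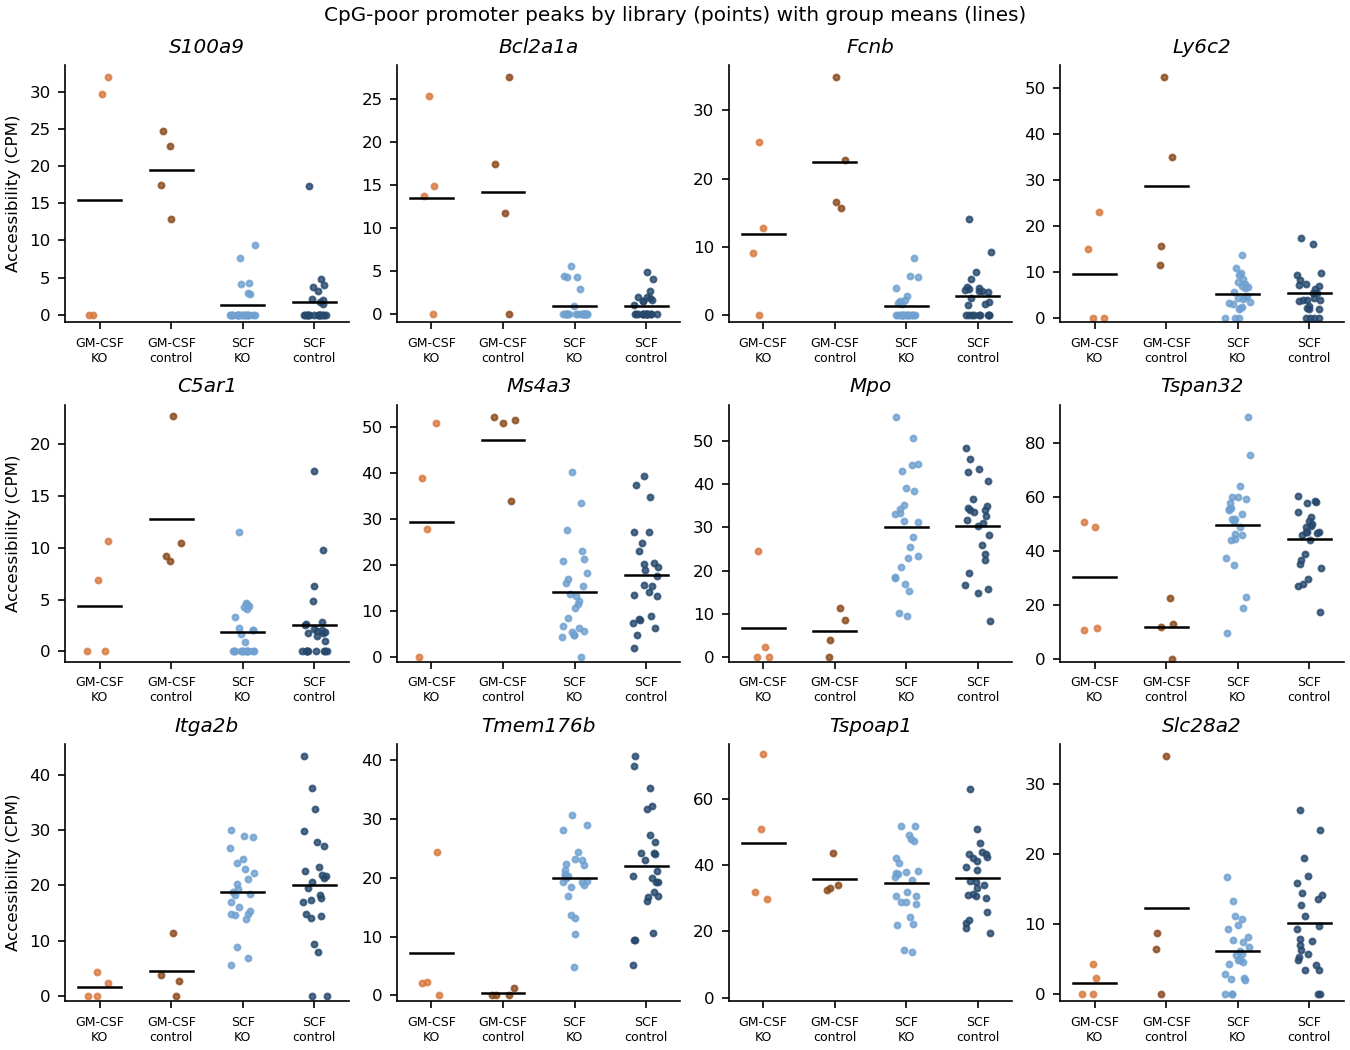
Accessibility (CPM) of 12 CpG-poor promoter peaks in every library, with GM-CSF KO, GM-CSF control, SCF KO and SCF control lines from left to right; points are libraries and lines are group means. GM-CSF control lines reach 34.8 CPM at Fcnb, where SCF control lines end at 14.0 CPM, while Mpo has a median of 32.3 CPM in SCF control lines and at most 11.3 CPM in GM-CSF control lines.

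Against these stood Mpo, which fell. It had 8.70, 11.3, 0 and 3.91 CPM in GM-CSF control lines, against a lowest, median and highest value of 8.38, 32.3 and 48.2 CPM in SCF control lines. The groups overlap only at the 2 shallow GM-CSF lines, and the log2 fold change was -3.07 ± 0.45 (adjusted p = 2.2e-09, edgeR). Of the 12 neutrophil members tested, 5 rose and 1 fell, beside 7.45% of all tested peaks higher and 7.79% lower. The median log2 fold change of the 12 was 0.96. Like S100a9, Fcnb, Camp and the called Ltb4r1 peak had means under 5 CPM in both SCF groups. They passed the filter through GM-CSF, so this tally was in part set by the filter. The 5 that rose (S100a9, Fcnb, Camp, Ltb4r1 and Ms4a3) and Mpo are named for being called. A second peak of Ltb4r1 had a log2 fold change of 0.60 ± 0.43 and was not called.

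Of 7 tested members of the innate sensing list, 3 were higher and none was lower, beside 7.45% of all tested peaks higher and 7.79% lower. The higher ones were C5ar1, the receptor of complement C5a, Trem3, an activating receptor of myeloid cells, and Clec12a, an inhibitory lectin. Of the list's 14 tested CpG-richer peaks, 1 was higher. The median log2 fold change over the 7 members was 0.94. C5ar1 had 8.70, 22.7, 9.20 and 10.4 CPM in GM-CSF control lines, against 0, 1.77 and 17.4 CPM in SCF control lines, a log2 fold change of 2.51 ± 0.56. With means of 1.91 CPM in SCF KO and 2.51 CPM in SCF control lines, C5ar1 passed the filter only through GM-CSF. Trem3 had a log2 fold change of 1.67 ± 0.34 and Clec12a of 1.27 ± 0.35. Tlr9, the receptor of unmethylated CpG DNA, and Clec4a2, a lectin with close copies beside it, did not pass, at 0.31 ± 0.55 and 0.15 ± 0.60.

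Ly6c2, the surface marker of inflammatory monocytes, had 52.2, 11.3, 35.0 and 15.6 CPM in GM-CSF control lines, against 0, 4.04 and 17.4 CPM in SCF control lines, a log2 fold change of 2.44 ± 0.39. Its peak holds no CpG at all, and it has a close copy, Ly6c1, with which reads could be shared. It was the 1 of 4 tested monocyte and macrophage members to rise, beside 7.45% of all tested peaks higher and 7.79% lower. Ccr1 (0.54 ± 0.40), Adgre1, which encodes F4/80 (-0.35 ± 0.53), and C1qc (-1.09 ± 0.51) did not pass. Of 4 tested cytokine and chemokine members, 1 rose, beside the same 7.45% of all tested peaks. It was Il1r2, the decoy receptor of interleukin 1, at 1.56 ± 0.46. The chemokine genes Ccl3 (-0.53 ± 0.37), Ccl2 (-0.79 ± 0.48) and Ccl9 (-1.07 ± 0.51) did not pass. Other members with large rises were 4930438A08Rik (3.27 ± 0.59), Fbxw17 (2.84 ± 0.69), Dock1 (2.81 ± 0.62) and Cyb561 (2.61 ± 0.60), of which the last 3 are peaks 851 to 959 bp from a TSS that itself holds 19 or more CpG. All 4 passed the filter only through GM-CSF, with means of 1.49 to 3.00 CPM in SCF KO lines and of 0.824 to 1.27 CPM in SCF control lines.

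**Figure D5:**
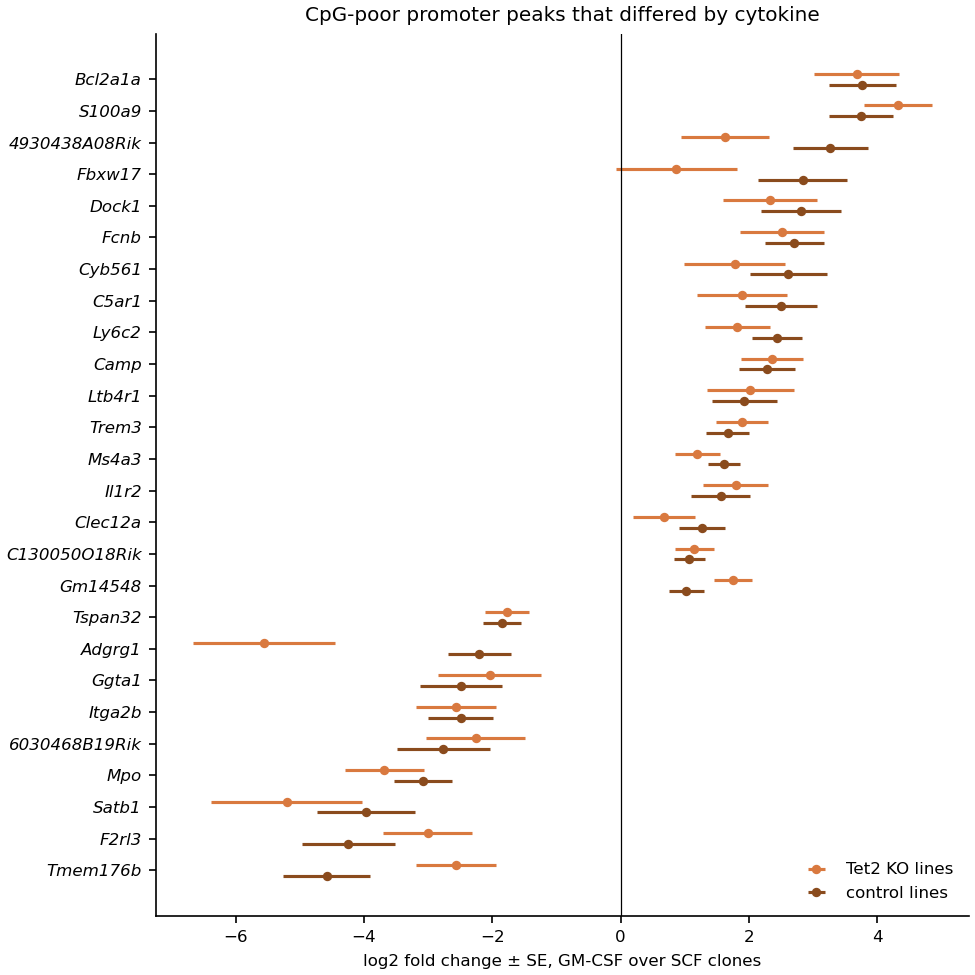
log2 fold change with SE of GM-CSF over SCF clones for named CpG-poor promoter peaks called in control lines; the upper point of each pair is the KO lines and the lower the control lines. Values run between 3.77 at Bcl2a1a and -4.58 at Tmem176b in control lines. The KO lines come from the same clones, entered the filter and have the same signs.

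Among the lower members, Tmem176b, a membrane channel protein of myeloid cells whose promoter lies within 1 kb of that of Tmem176a, had 0, 0, 0 and 1.30 CPM in GM-CSF control lines, against a lowest, median and highest value of 5.24, 20.8 and 40.7 CPM in SCF control lines. The groups do not overlap. With 1 count in the pooled GM-CSF control lines against 247 in SCF control lines, the pooled ratio was 0.0291 (exact 95% counting interval 0.000734 to 0.164). F2rl3, the thrombin receptor PAR4 of platelets, gave 1 count against 194, a ratio of 0.0371 (0.000934 to 0.209), and Satb1, a chromatin organizer of lymphoid and stem cells, 1 against 159, a ratio of 0.0452 (0.00114 to 0.256). Both have 1 such count in clone 22 and none in the other GM-CSF control lines. Satb1 had means under 5 CPM in both GM-CSF groups and passed the filter only through SCF.

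Itga2b, the CD41 integrin of megakaryocytes and early progenitors, had 0, 11.3, 3.68 and 2.61 CPM in GM-CSF control lines, against 0, 20.1 and 43.4 CPM in SCF control lines, a log2 fold change of -2.50 ± 0.51. Tspan32 had 0, 22.7, 12.9 and 11.7 CPM against 17.4, 46.9 and 60.2 CPM, a log2 fold change of -1.85 ± 0.30, and it alone of the 12 most open members fell. Adgrg1, the adhesion receptor GPR56 of stem and cytotoxic cells, had a log2 fold change of -2.20 ± 0.49. The fall was -2.49 ± 0.64 at Ggta1, a galactosyltransferase gene, and -2.76 ± 0.72 at 6030468B19Rik. Itga2b and Ggta1 had means under 5 CPM in both GM-CSF groups and passed the filter only through SCF. Of the 12 most open members, C130050O18Rik (1.07 ± 0.24), Gm14548 (1.02 ± 0.27) and Ms4a3 rose. Gm14548 belongs to a family of paired immunoglobulin-like receptors with near-identical copies. Tspoap1 did not pass, at -0.04 ± 0.23.

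The remaining lists gave few tested members. Of 11 tested pan-haematopoietic members none was called, where 7.45% of all tested peaks were higher and 7.79% lower. Gmfg (-0.35 ± 0.28), Hcst (0.50 ± 0.29) and Cd47 (-0.45 ± 0.26) did not pass. Cd33, a sialic acid receptor of myeloid cells, reached 0.76 ± 0.29 with an adjusted p of 0.0419 (edgeR), not past 0.01. Mcpt8, a basophil protease gene, stood at -0.38 ± 0.45, Slfn5 of the interferon response at -0.17 ± 0.45, and H2-DMa and H2-DMb1 of antigen loading at -0.35 ± 0.59 and 1.46 ± 0.54. Cd28 and Cd5 of the T cell list stood at -0.64 ± 0.57 and 0.77 ± 0.47, and Tnni2 of the muscle list at -0.26 ± 0.43. No stem cell, B cell, liver, epidermis, pancreas, brain or germ cell member was open enough to be tested.

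The called members lay at all distances. Of members within 150 bp of the TSS, 24 of 138 were higher and 8 lower, against 178 and 333 of 8168 other promoter peaks. Of those from there to 500 bp, 3 of 55 were higher and 5 lower, against 52 and 118 of 1832. Of those beyond 500 bp, 15 of 153 were higher and 5 lower, against 55 and 56 of 1402. A difference between these classes was not tested. As a share of promoter counts, CpG-poor peaks held 2.14 ± 0.233% in GM-CSF control lines (SD, n = 4) and 1.80 ± 0.293% in SCF control lines (SD, n = 24), a difference of 0.338 percentage points, with overlapping ranges of 1.89 to 2.45% and 1.33 to 2.57%.

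A last comparison, added after seeing the data, asked whether SCF clones differ from each other at CpG-poor promoters, beyond the spread between the KO and control lines of a clone. Of 346 members, 3 were called (edgeR F test of all clone terms), where 1.28% of all tested peaks were. In clones 1 to 18 alone 0 members were called, beside 143 of all 29108 tested peaks. In clones 23 to 29 alone 1 member was called, beside 72 of all 29108. S100a3, a calcium-binding protein of the S100 family, was highest in clone 28, with 54.4 CPM in the KO and 28.0 CPM in the control line, and had no count in either line of clone 14 (adjusted p = 6.17e-08, edgeR). Ms4a3 was highest in clone 27, with 40.2 CPM in the KO and 34.8 CPM in the control line, and lowest in clone 29, with 4.82 and 8.38 CPM (adjusted p = 0.00101, edgeR). Irgc1, an immunity-related GTPase family member, was highest in clone 28, with 23.8 CPM in the KO and 35.5 CPM in the control line, and lowest in clone 9, with 0 and 3.87 CPM (adjusted p = 0.00222, edgeR).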

How the data were processed

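The authors aligned bulk ATAC-seq reads to mm10 with Bowtie2 and processed them with SAMtools and Picard, per the submitters' processing notes. The sources used here give no versions and do not say whether fragments or insertions were counted. The deposited matrix holds whole-number counts per peak and library, not normalized, for 297361 peaks and 56 libraries, whose total counts ranged from 39379 to 1079233. These totals limit the precision of every value, and counting intervals cover counting error only.

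Start sites were taken from GENCODE M21 and CpG counted in the RefSeq GRCm38.p6 sequence. A peak was named by the protein-coding gene with the nearest TSS. CPM are counts scaled to a library total of 1000000. Peaks with a mean of at least 5 CPM over the 4 group means were tested with edgeR 4.0.16 (R 4.3.3, TMM scaling, quasi-likelihood F test), with Benjamini-Hochberg adjustment over all 29108 tested peaks, and called at an adjusted p of 0.01. The SE is the log2 fold change over the square root of F. KO and control lines were blocked by clone, since both lines of a pair come from 1 clone. Their deviations correlated with a median r of 0.06 within clones (0.00 to 0.18) and of 0.00 between clones. GM-CSF against SCF used control lines, while all 56 libraries entered the fit for KO in GM-CSF clones and for how it differed from SCF clones. Fits were tested on simulated data. DESeq2 1.42.0 and other scalings, filters, definitions and sets of clones were tried as alternatives.

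Named are the 12 most open members, up to 8 called members with the largest rise and fall (where fewer than 4 were called, those at an adjusted p under 0.05), up to 4 tested members of each gene list by accessibility, and called list members, which were added after their values were seen. The members and the lists were chosen with earlier results of these data known.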

Additional observations from a re-analysis of the deposited data

Results flagged for a closer look

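In groups of 4 GM-CSF lines, a library was picked out where its gap to the nearest other one took more of the group's range than Dixon's critical value for 4 samples allows. This held for 17 of 112 groups of named peaks. The critical value is set for about 1 in 20 among normal values of equal spread. Counts here are few and the libraries differ in depth, so that rate does not apply. Among KO lines, clone 19 was the highest at Hcst with 73.4 CPM (3 counts), at Adgre1 with 48.9 CPM (2 counts) and, with 24.5 CPM from 1 count each, at 6030468B19Rik, Fbxw17, Mpo and Tmem176b. Clone 20 was the highest KO line at F2rl3, with 25.4 CPM from 1 count. Clone 21 was the highest KO line at Slfn5 with 14.9 CPM (7 counts) and at S100a3 with 4.27 CPM (2 counts), and clone 22 at 4930438A08Rik with 16.0 CPM (7 counts). Most of these values thus rest on 1 to 3 counts.

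Among control lines, clone 20 was the highest at C5ar1 with 22.7 CPM (2 counts) and at 6030468B19Rik with 11.3 CPM (1 count), and the lowest at Ms4a3 with 34.0 CPM (3 counts). Clone 19 was the highest control line at Tspoap1 with 43.5 CPM (5 counts). Clone 22 was the highest at F2rl3, Satb1 and Tmem176b, with 1.30 CPM from 1 count each, where the other control lines had no count.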

How the results depend on the processing

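For KO in SCF clones no member was called under any alternative that kept the threshold and the rule. Exceptions came from an adjusted p of 0.05 (1 lower) and from 5 or fewer CpG (1 higher). Without the replicate block 0 members were called, with 165 of all peaks against 246. All peaks called were 3 of 102083 with a mean of 2 CPM, 197 of 7871 with edgeR's own filter, 199 without clones 5, 13 and 16, 442 with upper-quartile scaling, 174 with the GC offset, 183 with DESeq2, 92 in clones 1 to 18 and 0 in clones 23 to 29.

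For GM-CSF against SCF control lines, members higher and lower numbered 7 and 10 with edgeR's own filter, which left 62 members. They numbered 28 and 21 with a mean of 2 CPM, which left 1214. At an adjusted p of 0.05 there were 65 and 25, and with DESeq2 35 and 10. All peaks called were, in this order, 1933 of 13171, 4284 of 102083, 6716 of 29108 and 2767 of 29108. Members numbered 20 and 9 of 174 with 2 or fewer CpG, and 77 and 38 of 678 with 5 or fewer. Within 500 bp of a TSS there were 27 and 13 of 193. These definitions left the 4435 called peaks as they were. Leaving out each GM-CSF clone gave 14 to 44 higher and 6 to 18 lower, and 1884 to 4199 of all peaks, against 4435. The difference in the share of promoter counts was 0.759 percentage points with 5 or fewer CpG, and 0.233 to 0.419 without each clone. The differences between SCF clones gave 0 members in clones 1 to 18 and 1 in clones 23 to 29, beside 143 and 72 of all 29108 peaks. No named value changed sign. The GC offset was computed from summed counts, chosen after seeing the data, and the planned offset from median ratios was not run. The cause of these changes was not tested, apart from the fewer peaks or clones that some alternatives hold by construction. In the shallow GM-CSF control lines of clones 20 and 19, 1 count is 11.3 and 8.70 CPM. Without both lines 38 members were higher and 15 lower, beside 3875 of all 29108 peaks called.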

Other observations

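Motif shares among the members that differed by cytokine are given as a description of small sets. TTGCNNAA was found in 28.6% of the 42 higher and 11.1% of the 18 lower members, beside 17.9% of all 346 tested members. AGATAA was found in 4.76% of the higher (2 of 42) and 27.8% of the lower members (5 of 18), beside 10.7%. CAGCTG (E protein E-box) was found in 14.3% and 50.0%, beside 24.0%. GAGGAA was found in 54.8% and 50.0%, beside 51.2%, and TGTGGT in 31.0% and 44.4%, beside 37.9%. These are some of the 15 motifs counted, and their differences were not tested.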
